A study of Homo sapiens with 6 samples.

Results

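The Krüppel-like factors examined here were 10 members of the KLF family of transcription factors, KLF2, KLF4, KLF5, KLF6, KLF9, KLF10, KLF11, KLF13, KLF15 and KLF16, taken by gene symbol from a table of 27009 genes. The table came from RNA sequencing of 6 libraries of cells labelled Hep3B, a human hepatocellular carcinoma line, all with the endogenous PD-L1 gene knocked out. By their labels, 3 libraries came from cells with the empty lentiviral vector and 3 from cells given nPD-L1, a mutated PD-L1 described as confined to the nucleus and driven from a CMV promoter. The deposited values summed to between 18082164 and 19682128 scaled reads per library. The comparison asked which transcripts differ between cells given nPD-L1 and cells given the empty vector, all lacking their own PD-L1. The cells were described as stable cells made by lentiviral infection and drug selection. Differences between the selected cells cannot be told apart from an effect of nPD-L1. The labels do not say whether the 3 libraries of a group came from separate cultures, so the p values measure the spread between these libraries, which may be technical.

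Checks of the labels come first. CD274, which encodes PD-L1, had 28.3, 38.4 and 47.8 scaled reads (reads on a gene divided by the authors' size factor for the library) in the vector libraries and 16.8, 19.2 and 30.9 under the nPD-L1 label. The nPD-L1 label thus did not go with more CD274 reads (log2 fold change −0.76, adjusted p = 0.338 from limma), so the libraries are called by their labels and every direction below rests on them. Of 10 markers of hepatocytes and Hep3B cells, 8 were in the table. AFP and GPC3 were not, so their levels are not known. ALB, APOA1, APOB and TTR, which encode abundant plasma proteins of liver cells, reached at most 2.89 scaled reads in any library. FGB and APOH were present. The 8 markers summed to 1151 to 1870 scaled reads in the vector libraries and 1204 to 1355 in those labelled nPD-L1. Most of this was FGB, at 962 to 1540 with vector and 995 to 1120 under the nPD-L1 label. HNF4A, a liver transcription factor, was low but higher by 1.91 on the log2 scale under the nPD-L1 label (adjusted p = 0.023 from limma), a call that was lost without any 1 of the nPD-L1 replicates and in limma, edgeR and DESeq2 on 4 libraries. ALB, APOA1, APOB and TTR were thus at or near 0 in cells labelled as a liver cancer line, and "Hep3B" is used here only as the label. Of 9 markers of blood, endothelial and stromal cells, 5 were in the table and 4 of these had at most 5.04 scaled reads in any library. The list summed to 53.0 to 89.8 scaled reads in the vector libraries and 449 to 488 in those labelled nPD-L1, nearly all of it COL1A1, a collagen gene that was higher by 2.84 on the log2 scale (adjusted p = 8.0e-06 from limma). The part of these in the results below was not tested.

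Krüppel-like factors bind GC-rich and CACCC-type DNA through a run of zinc fingers at their C-terminal end, and differ in the N-terminal part that recruits coactivators or corepressors. KLF2, KLF4, KLF5 and KLF6 are usually described as activators or as factors that can switch between activation and repression, whereas KLF9, KLF10, KLF11, KLF13 and KLF16 carry a short helix that binds the SIN3 corepressor. Many of them are induced quickly by extracellular signals, KLF10 and KLF11 having been found as early genes of the TGF-β response, and in liver KLF15 and KLF9 are known for control of glucose and amino acid metabolism. SP factors form the sister family and bind the same GC boxes.

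Of the 10 members, 9 had at least 10 scaled reads in every library and were tested. Their values ranged from 118 to 2153 scaled reads. KLF13 and KLF10 rose and KLF5 and KLF6 fell in the libraries labelled nPD-L1, each by close to 2-fold, and the other 5 tested members did not pass the test. In limma on log2(scaled reads + 1), with adjustment over all 15076 genes tested and a threshold of 0.05, 2 members were higher (background 4.04% of the genes tested) and 2 lower (background 0.922%). In either direction 4.96% of all genes tested were called. At an unadjusted p under 0.05 the members gave these 4 and no more, beside 9.53% of all genes higher, 4.71% lower and 14.2% in either direction. The groups did not overlap for 4 of the 9 members, 2 higher and 2 lower, against 20.6% of the genes tested (12% higher and 8.54% lower). In bulk RNA, fewer cells with a transcript and less of it per cell cannot be told apart. The median log2 fold change of the 9 members was −0.0037, beside −0.019 for all genes tested. The members were named with earlier results of these data known. Among 468 tested genes that the table classes as zf-C2H2 factors, the class the KLF genes belong to, 4.91% were higher and 0.855% lower.

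**Figure D1:**
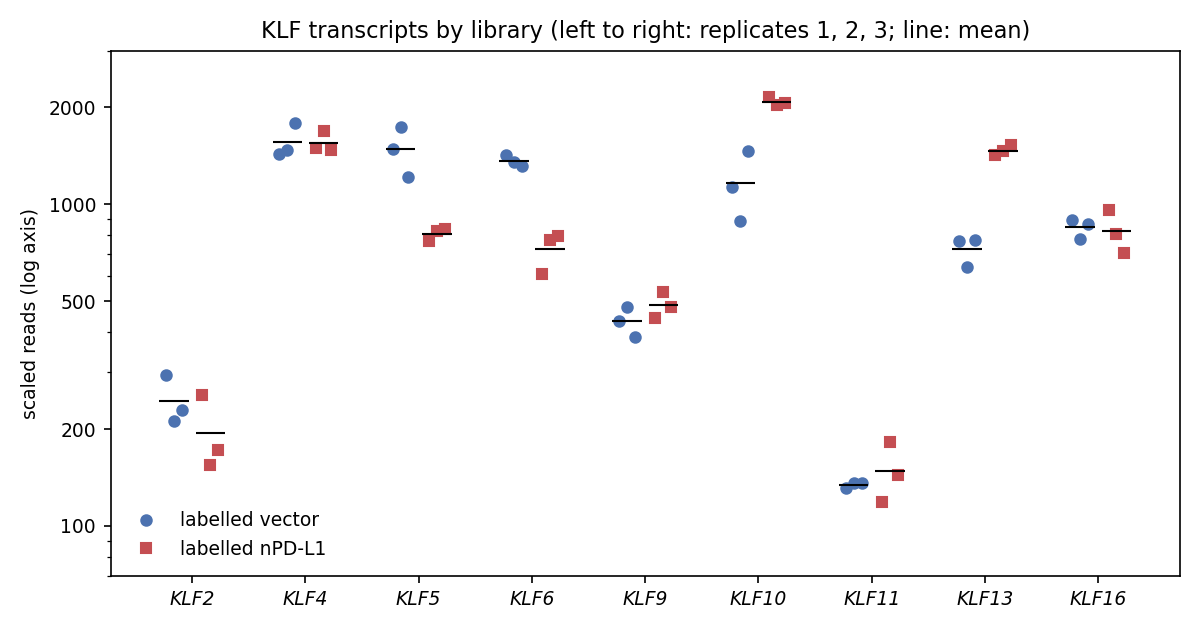
Scaled reads (log axis) of the 9 tested KLF members, with each library as a point (blue circles, labelled vector; red squares, labelled nPD-L1; replicates 1, 2 and 3 from left to right) and the group mean as a line. The groups are apart for KLF5, KLF6, KLF10 and KLF13 and overlap for the other 5.

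Both called members that went up belong to the 5 SIN3-binding factors, of which 2 rose and 0 fell. Both that went down belong to the 4 factors described as activators or as able to switch to repression, of which 2 fell and 0 rose. Over all genes tested, 4.04% were higher and 0.922% lower. The split rests on 4 calls, of which that of KLF10 was lost in 4 of 17 alternatives and that of KLF5 in 1. This split covers the 10 members only, and KLF7, a relative of KLF6 that is not among them and is likewise described as an activator, rose by 2.31 on the log2 scale. KLF13 (ENSG00000169926; GRCh38 chromosome 15, 31326855 to 31435665, + strand) encodes a factor first studied in the control of the chemokine gene CCL5 in T lymphocytes. It had 770, 638 and 774 scaled reads in vector replicates 1, 2 and 3, and 1419, 1458 and 1527 in nPD-L1 replicates 1, 2 and 3. The lowest library labelled nPD-L1 lay well above the highest vector library. The means were 727 ± 77.4 and 1468 ± 54.5 (SD, n = 3 each), so that KLF13 rose by 1.02 on the log2 scale (standard error 0.11, adjusted p = 0.00025 from limma). KLF13 alone among the 4 reached 2-fold, a size that 2.03% of the genes tested reached upward and 0.451% downward with a call. KLF13 was called under all 17 alternatives run, with log2 fold changes of 0.93 to 1.07.

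KLF10 (ENSG00000155090; chromosome 8, 102648779 to 102655902, − strand), known as TIEG1, is induced early by TGF-β and represses transcription through SIN3. Its vector libraries were widely spread, at 1132, 888 and 1463 scaled reads, and the libraries labelled nPD-L1 were close together, at 2153, 2030 and 2059. All 3 of the latter were above the highest vector library. KLF10 rose by 0.87 on the log2 scale (standard error 0.16, adjusted p = 0.0077 from limma). The call was lost without nPD-L1 replicate 1 (0.85, adjusted p = 0.0638 from limma) or nPD-L1 replicate 3 (0.88, adjusted p = 0.0508 from limma). It was also lost in limma (adjusted p = 0.0834) and edgeR (adjusted p = 0.0926) on 4 libraries. Over the alternatives the adjusted p ranged from 6.5e-05 to 0.0926. The log2 fold change of KLF10 ran from 0.69 without vector replicate 2 to 1.05 without vector replicate 3.

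KLF5 (ENSG00000102554; chromosome 13, 73054976 to 73077542, + strand), a factor of proliferating epithelial cells, had 1485, 1738 and 1218 scaled reads in vector replicates 1, 2 and 3. In nPD-L1 replicates 1, 2 and 3 it had 767, 827 and 835. The vector libraries were spread more than those labelled nPD-L1, and no value of one group reached the other. KLF5 fell by 0.85 on the log2 scale (standard error 0.13, adjusted p = 0.0029 from limma), from 1480 ± 260 to 810 ± 37.2 (SD, n = 3 each). Its call was lost in limma on the 4 libraries whose whole reads could be recovered (−0.86, adjusted p = 0.0569). Over the alternatives its adjusted p ran from 1.5e-05 to 0.0569. The log2 fold change of KLF5 ran from −0.99 without vector replicate 3 to −0.73 without vector replicate 2.

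KLF6 (ENSG00000067082; chromosome 10, 3775996 to 3785281, − strand), described as a growth suppressor in several tumours and as an early gene of liver injury, had the lowest fold change of the members. Its scaled reads were 1419, 1354 and 1314 with vector and 605, 773 and 799 under the nPD-L1 label. Vector libraries lay within a narrow range, and nPD-L1 replicate 1 was the lowest. KLF6 fell by 0.92 on the log2 scale (standard error 0.12, adjusted p = 0.0012 from limma), and was called under all 17 alternatives (−0.99 to −0.79).

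The promoters of the called members are shown because those members moved as a pair in each direction. RefSeq windows of 300 bases (GRCh38.p14), from 250 before to 50 after a start site, were found for 9 of the 10 members, with none used for KLF10. They are printed 5′ to 3′ on the gene's strand, with capitals for the GC box GGGCGG and the CACCC box CCACCC on either strand. KLF13 starts at a single window on the + strand (chr15:31326585-31326884), KLF6 at a single window on the − strand (chr10:3785160-3785459), and KLF5 at 2 windows on the + strand (upstream, chr13:73054726-73055025; downstream, chr13:73058755-73059054).
KLF13: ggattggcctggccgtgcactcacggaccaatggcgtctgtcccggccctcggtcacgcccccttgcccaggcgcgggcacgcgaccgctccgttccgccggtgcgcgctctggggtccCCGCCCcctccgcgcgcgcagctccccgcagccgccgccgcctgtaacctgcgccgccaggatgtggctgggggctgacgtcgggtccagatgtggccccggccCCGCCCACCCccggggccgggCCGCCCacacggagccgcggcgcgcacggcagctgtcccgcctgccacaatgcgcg
KLF6: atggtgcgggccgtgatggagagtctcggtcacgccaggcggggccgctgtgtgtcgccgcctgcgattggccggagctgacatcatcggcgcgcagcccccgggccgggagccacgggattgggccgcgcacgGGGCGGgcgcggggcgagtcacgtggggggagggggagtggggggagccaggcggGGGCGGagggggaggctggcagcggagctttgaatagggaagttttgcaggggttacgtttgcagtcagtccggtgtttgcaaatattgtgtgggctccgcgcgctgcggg
KLF5 upstream: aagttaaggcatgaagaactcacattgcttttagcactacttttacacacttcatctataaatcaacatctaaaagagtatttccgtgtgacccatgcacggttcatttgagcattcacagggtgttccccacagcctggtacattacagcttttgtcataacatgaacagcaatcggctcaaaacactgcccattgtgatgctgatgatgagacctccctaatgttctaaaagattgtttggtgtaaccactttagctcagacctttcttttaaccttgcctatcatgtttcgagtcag
KLF5 downstream: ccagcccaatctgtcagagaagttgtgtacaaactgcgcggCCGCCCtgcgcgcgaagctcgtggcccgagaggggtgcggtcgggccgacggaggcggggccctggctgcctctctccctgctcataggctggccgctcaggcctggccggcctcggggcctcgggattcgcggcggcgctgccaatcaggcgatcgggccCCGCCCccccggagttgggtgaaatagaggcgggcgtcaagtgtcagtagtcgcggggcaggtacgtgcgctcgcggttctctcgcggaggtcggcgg
KLF13, KLF6 and the downstream KLF5 window were rich in G and C (78.3%, 70.7% and 71.3%) and held 3, 2 and 2 GC boxes. One of the KLF13 GC boxes overlapped the CACCC box, which was the only CACCC box in the member windows. The upstream KLF5 window had 40.7% G and C and neither box. Over the 11 windows of the 9 members, 9 held a GC box and 1 a CACCC box, beside 45.0% and 34.3% of 35116 windows of the same length, whose median G and C content was 58.7%. The AP-1 letters TGACTCA (4.95% of all windows) and the SMAD palindrome GTCTAGAC (0.202%) were found in none of the 11, the cAMP response element TGACGTCA (1.85%) in 1 and the E-box CACGTG (7.26%) in 4. These are matches of letters only. The GC box was in windows of KLF13, which rose, and of KLF5 and KLF6, which fell.

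The other members described as activators or as able to switch to repression were KLF2 and KLF4. KLF4, one of the factors used to reprogram somatic cells to pluripotency, had nearly equal means. Its libraries held 1434, 1474 and 1783 scaled reads with vector and 1497, 1691 and 1478 with the nPD-L1 label. The groups overlapped, and the log2 fold change was −0.0037 with a 95% interval of −0.26 to 0.25 (adjusted p = 0.992 from limma). KLF2, which keeps T cells and endothelium quiescent, had 294, 212 and 230 scaled reads with vector and 255, 155 and 172 under the nPD-L1 label. In both groups replicate 1 was the highest, and the groups overlapped. Its log2 fold change of −0.36 had an interval of −0.82 to 0.099 (adjusted p = 0.506 from limma), whose lower end stopped just short of the change of KLF5.

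Among the SIN3-binding factors, KLF11, the closest relative of KLF10 and likewise induced by TGF-β in other cells, had 131, 136 and 136 scaled reads with vector and 118, 182 and 144 under the nPD-L1 label. The vector libraries differed by little, and those labelled nPD-L1 lay on both sides of them. The log2 fold change was 0.12 with an interval of −0.29 to 0.53 (adjusted p = 0.823 from limma). Within each library, KLF10 exceeded KLF11 by 3.10, 2.70 and 3.42 on the log2(scaled reads + 1) scale with vector and by 4.17, 3.47 and 3.83 under the nPD-L1 label. This difference was larger by 0.75 in the latter, without overlap (two-sided exact permutation test, p = 0.1, the smallest that 3 libraries against 3 allow). The same measure for KLF2 against KLF4 changed by −0.36, with overlap between the groups (exact permutation p = 0.4).

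KLF9, which is induced by glucocorticoids and thyroid hormone, had 432, 478 and 388 scaled reads with vector and 444, 534 and 480 under the nPD-L1 label (log2 fold change 0.17, interval −0.12 to 0.45, adjusted p = 0.631 from limma). KLF16, which binds GC-rich sites of dopamine receptor genes, had 892, 780 and 867 with vector and 959, 808 and 703 with the nPD-L1 label (−0.049, interval −0.33 to 0.24, adjusted p = 0.898 from limma). The groups overlapped for both genes, and the intervals of KLF9, KLF11 and KLF16 left out the estimated changes of KLF13 and KLF10. The KLF11 interval still overlapped that of KLF10 (0.52 to 1.22). KLF15, a regulator of hepatic gluconeogenesis, was not detectable at this depth. It stood at 1.01, 1.13 and 0 scaled reads with vector and at 0, 1.01 and 1.93 under the nPD-L1 label, all under the value of 3 reads in the same library (2.52 to 3.39 scaled reads), and no fold change is given.

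Levels of different genes were compared as scaled reads per kb of gene length, where the length is the merged exons of the gene and matched GENCODE 29 for all 10 members. In the vector libraries KLF4 ranked first at 427 ± 52.2 per kb, followed by KLF5 (380 ± 66.8), KLF10 (290 ± 72.2) and KLF16 (286 ± 19.8). KLF4 overlapped KLF5, KLF5 overlapped KLF10 and KLF10 overlapped KLF16, so that the order of these neighbours is not resolved, while KLF16 lay above KLF6 without overlap. KLF6 (222 ± 8.67) and KLF2 (122 ± 21.2) were each set off from their neighbours, KLF9 and KLF13 overlapped (83.6 ± 8.70 and 77.3 ± 8.23), and KLF11 was lowest of the tested members at 29.3 ± 0.585 (SD, n = 3).

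The order differed where nPD-L1 was the label. KLF10 stood first at 520 ± 16.1 per kb, above KLF4 (425 ± 32.3) in every library, with KLF16 (279 ± 43.5) next. KLF5 (208 ± 9.56) followed, and KLF13 (156 ± 5.79) stood above KLF6 (118 ± 17.1) without overlap, where KLF6 had been well above KLF13 with vector. KLF6 overlapped KLF2 (96.0 ± 26.5), and KLF2 overlapped KLF9 (93.9 ± 8.78). The sum over the 10 members was nearly the same in both groups, 1918 ± 62.2 and 1928 ± 47.8 per kb (SD, n = 3), while its makeup differed. KLF10 made up 15.1% ± 3.29 of it with vector and 27.0% ± 0.898 in the libraries labelled nPD-L1, and KLF13 4.03% ± 0.315 and 8.10% ± 0.499. KLF5 made up 19.9% ± 4.14 and 10.8% ± 0.692, and KLF6 11.6% ± 0.641 and 6.14% ± 0.987.

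**Figure D2:**
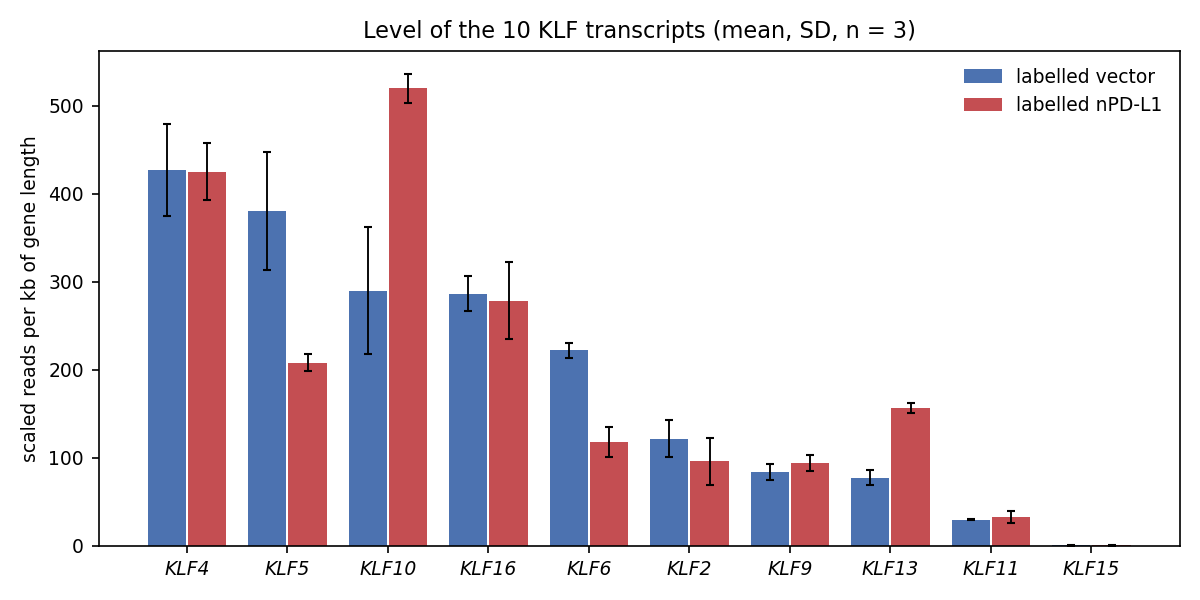
Scaled reads per kb of gene length for the 10 KLF members, ordered by their level in the vector libraries (bars, mean; error bars, SD; n = 3; blue, labelled vector; red, labelled nPD-L1). KLF10 rises from 290 to 520 per kb and takes the first place from KLF4, KLF5 goes from 380 to 208, and KLF15 is near 0.

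The rest of the KLF family and the SP family were looked at for comparison. Of 8 other KLF genes, 5 were in the table and 3 were tested. KLF7 (ENSG00000118263; chromosome 2, 207074137 to 207167267, − strand), known for its part in the growth of neurons, had 245, 197 and 270 scaled reads with vector and 1066, 1184 and 1282 under the nPD-L1 label. This was a larger change than that of any of the 9 members tested, 2.31 on the log2 scale with a standard error of 0.14 (adjusted p = 4.2e-06 from limma), and its 95% interval of 2.0 to 2.63 did not reach that of KLF13 (0.77 to 1.26). KLF3, a CtBP-binding repressor, and KLF12 were not called, at 0.061 (interval −0.18 to 0.30) and −0.047. Of 9 SP genes, 6 were tested and 0 were called in limma, with 1 at an unadjusted p under 0.05, and edgeR and DESeq2 on 4 libraries called 0. SP9 had the smallest adjusted p, 0.131, at a log2 fold change of 0.58. SP1 and SP3, the widely expressed members, stood at 0.096 and 0.18.

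**Figure D3:**
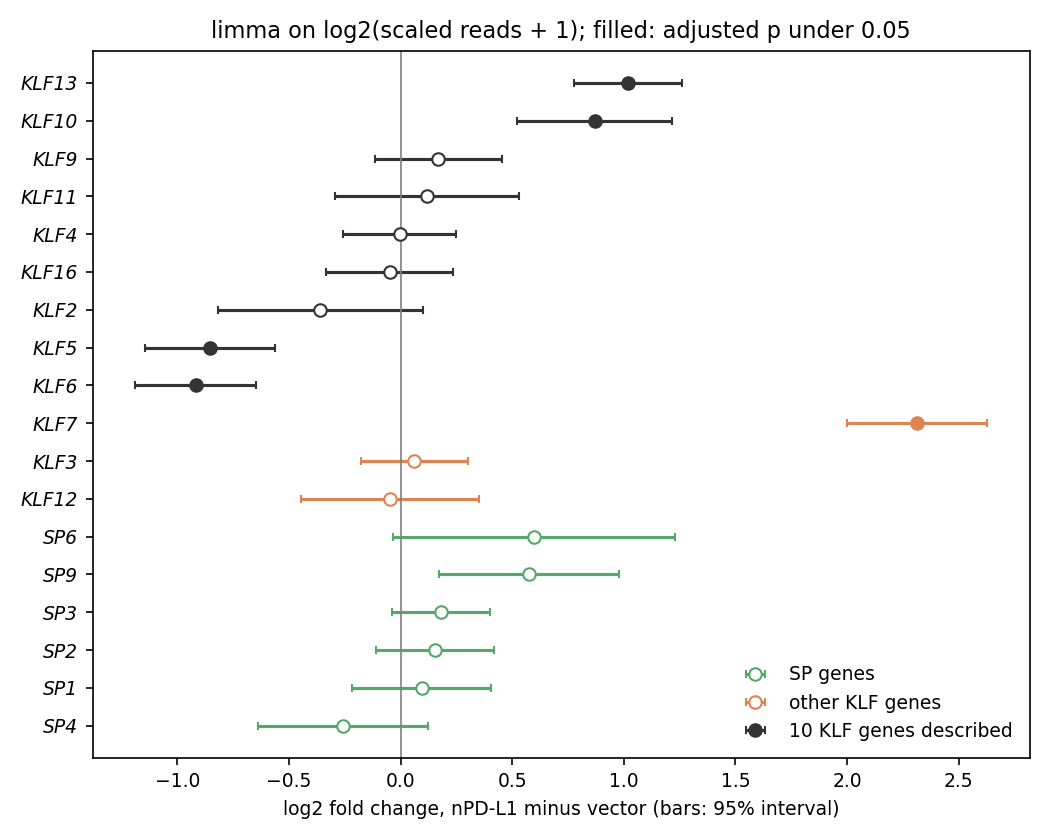
Log2 fold changes on the log2(scaled reads + 1) scale, libraries labelled nPD-L1 minus vector, for the 9 tested members (black), 3 other KLF genes (orange) and 6 SP genes (green), with 95% intervals from limma. Filled points have an adjusted p under 0.05. KLF7 lies farthest to the right at 2.31, and KLF5 and KLF6 are the only filled points to the left of 0.

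Since KLF10 and KLF11 are TGF-β early genes, 12 other genes of the early TGF-β response were listed beside them. The list was chosen with earlier results of these data known, so its count is not independent of them. Of the 12 genes, 9 were higher and 0 lower in limma (background 4.04% and 0.922%). The median log2 fold change of the 12 was 1.80. Among the 9, the smallest was SMURF2 at 1.11, followed by ID1 at 1.67. JUNB, an AP-1 subunit, rose by 4.62, SKIL, a SMAD corepressor, by 3.83, and SMAD7, the inhibitory SMAD, by 2.21. TGIF1, LTBP2 and TGFBI were not called (0.31, 0.43 and 0.53). The change of KLF10, 0.87 with an interval of 0.52 to 1.22, was smaller than that of each of the 9, although its interval overlapped that of SMURF2 (0.89 to 1.34).

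The transcripts closest to the members at both ends of the range were sought over all genes tested, by the distance between profiles of log2(scaled reads + 1) centred over the 6 libraries. Closest to KLF13 were LRRN2 (distance 0.135, log2 fold change 1.0), NFATC2 (0.177, 0.97) and DAB2IP (0.192, 1.08). Closest to KLF6 were CLDN1 (0.176, −0.86), a tight junction claudin, BIRC3 (0.196, −0.83), a target of NF-κB, and PLPP3 (0.211, −0.85). With 6 libraries in 2 groups, such likeness mostly follows the difference between the groups.

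Reads of the members could be shared with few other features. The genes in the table that overlapped a member's span were 1 antisense transcript at KLF16, with at most 2.08 scaled reads and outside its exons. Pseudogenes of the family in the table, KLF2P2 and KLF3P1, had at most 2.02 scaled reads, and the library kit and counting are not stated to keep strand.

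**Figure D4:**
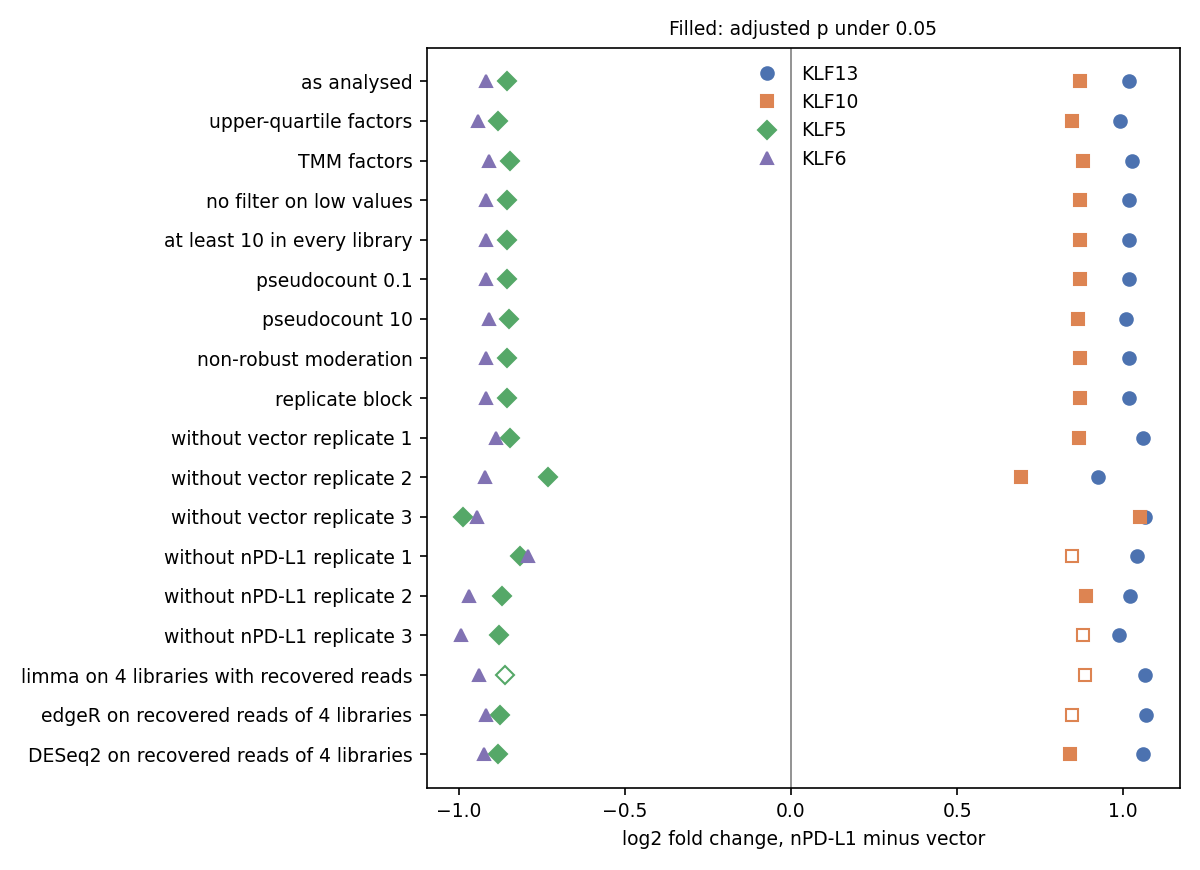
Log2 fold changes (nPD-L1 label minus vector) of KLF13 (circles), KLF10 (squares), KLF5 (diamonds) and KLF6 (triangles) as analysed and under the 17 alternatives on the vertical axis. Filled points have an adjusted p under 0.05. All 4 stay on their side of 0, with open points for KLF10 in 4 alternatives and for KLF5 in 1.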

How the data were processed

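Total RNA had been isolated with TRIzol, libraries were made with the NEBNext Ultra kit, and sequencing and analysis were done by a company. The submitters' processing notes name CASAVA, HISAT2 (version 2.0.5) and hg38. The counter and annotation release are not given in the sources used here. What the authors deposited for each library is a signal (gene reads over a library size factor), although the table presents them as raw counts. The same deposited table holds the authors' group means, log2 fold changes and p-values, which were not used. Nonzero values were whole multiples of the value of 1 read within 0.01 in 100% of cases in all libraries, and this was taken as recovered reads in 4 (vector replicates 2 and 3, nPD-L1 replicates 1 and 3; 17427519 to 22253295 reads on genes). In the other 2 the step lay too close to 1.

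Libraries were grouped by title. limma (version 3.58.1, R 4.3.3; eBayes with trend and robust moderation) was run on log2(value + 1) for 15076 genes that reached 10 scaled reads in 3 or more of the 6 libraries, with Benjamini-Hochberg adjustment over all of them. Fold changes on this scale understate low genes. Intervals are 95% limits from limma's moderated degrees of freedom. edgeR (4.0.16) and DESeq2 (1.42.0) were run on the recovered reads of 4 libraries as alternatives, beside other scalings, filters, pseudocounts, moderation, thresholds, a replicate block and each library left out. The code was tested on simulated data. Ratios within libraries were compared with scipy (1.17.1). The members and lists were chosen with earlier results of these data known. Genes named were CD274, the 10 members, all tested KLF and SP genes, up to 4 called genes of each list with the largest change (more where a sentence needed them, chosen after their values were seen), and the 3 nearest profiles of the members with the highest and lowest fold change. Some genes that these rules select are not reported here by name. Promoter windows were from RefSeq, with chromosome 8 left out.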

Additional observations from a re-analysis of the deposited data

How the results depend on the processing

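Over 17 alternatives for each of the 9 tested members, 137 of 153 values kept their direction and their side of the threshold, 5 lost the call and 11 changed sign. The 2 higher members became 1 in limma and in edgeR on 4 libraries and 1 when at least 2-fold change was required, and 1 to 2 with a library left out, KLF10 being the one lost in the fits named. The 2 lower members became 1 in limma on 4 libraries and 0 when at least 2-fold change was required, and stayed at 2 with any library left out. The values that changed sign were never called. KLF4 was 0.0063 with TMM factors and positive without vector replicate 3, nPD-L1 replicate 1 or nPD-L1 replicate 3, with a range of −0.065 to 0.094 over the libraries left out. KLF11 was −0.057, −0.045 and −0.051 in limma, edgeR and DESeq2 on 4 libraries, and −0.041 without nPD-L1 replicate 2 (range −0.041 to 0.27). KLF16 was 0.019 in edgeR and 0.013 in DESeq2, and 0.059 without nPD-L1 replicate 3 (range −0.16 to 0.059). KLF12 was 0.050 without vector replicate 3 and 0.0070 without nPD-L1 replicate 3 (range −0.11 to 0.050), and SP1 was −0.077 without vector replicate 2 (range −0.077 to 0.21). The cause was not tested. Over all genes, 609 higher and 139 lower became, on 4 libraries, 254 higher and 53 lower with limma, 264 higher and 61 lower with edgeR, 333 higher and 85 lower with DESeq2, and 350 to 793 and 77 to 244 with a library left out.

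With the replicate number as a block, the replicate block gave 927 higher and 258 lower genes over all, and the same 2 and 2 members. Same-numbered libraries deviated together for replicates 2 and 3 (r = 0.229 and 0.131) but not for replicate 1 (−0.013), so the numbers were not taken as pairs, and vector replicate 1 was closest to nPD-L1 replicate 3. The largest shift of the median over all genes, among the scalings, was −0.026, with upper-quartile factors. Among the genes tested, vector replicate 2 differed over 2-fold from vector replicate 1 in 883 and from vector replicate 3 in 1281. The other pairs of libraries within a group gave 549 to 646 such genes. The number of libraries, 3 a group, limits the precision, and at this depth KLF15 could not be tested.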

Other observations

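Genes that act with Krüppel-like factors were examined as lists. Of 14 cofactors and ubiquitin ligases, all tested, 1 was higher and 0 lower in limma (background 4.04% and 0.922% of the genes tested). The one called was SMURF1, an E3 ligase of the TGF-β and BMP pathways, with 1326, 1076 and 1430 scaled reads with vector and 2123, 2135 and 2095 under the nPD-L1 label, a log2 fold change of 0.74 (adjusted p = 0.00345). SIN3A, the corepressor bound by KLF10 and KLF13, stood at 0.47 with groups that did not overlap and an adjusted p of 0.063 in limma. The count was 0 to 2 over the alternatives, 0 in limma and edgeR on 4 libraries and 2 with no filter on low values, with the replicate block, and without vector replicate 2 or vector replicate 3. WWP1, which marks KLF5 and KLF2 for degradation, was not called (0.12).

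The ERK5 and MEF2 list, the pathway through which KLF2 and KLF4 are induced in endothelium, had 2 of 7 genes higher and 0 lower (background 4.04% and 0.922%). MAP3K2, a kinase upstream of ERK5, rose by 1.29 (adjusted p = 6.6e-05 from limma) and MEF2D by 0.54 (adjusted p = 0.00489), while MAPK7, which encodes ERK5 itself, stood at −0.31 (adjusted p = 0.402). The count was 1 to 3 over the alternatives, and 1 in limma, edgeR and DESeq2 on 4 libraries. None of 4 tested genes among 7 endothelial outputs of KLF2 and KLF4 was called in limma, at either threshold or by edgeR or DESeq2 on 4 libraries.

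Of 10 genes of the glucocorticoid receptor response, 8 were tested, 0 were higher and 1 was lower (background 4.04% and 0.922%), TSC22D3, which encodes GILZ. It fell by 0.46 (adjusted p = 0.044 from limma) and lost the call in limma, edgeR and DESeq2 on 4 libraries, with no filter on low values, and without vector replicate 1, nPD-L1 replicate 2 or nPD-L1 replicate 3. With the replicate block and without vector replicate 2, 1 gene of the list was called higher.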
